A study of Mus musculus with 52 samples.

Results

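The genes that encode voltage-gated calcium channels, voltage-gated sodium channels, hyperpolarization-activated HCN channels, the sodium leak channel NALCN and the TRPC, TRPM and TRPV channels were followed in the suprachiasmatic nucleus (SCN) of male mice of 11 to 12 weeks. The SCN is the paired hypothalamic nucleus that holds the circadian pacemaker. Members were chosen by symbol from the 21999 genes of the read count tables. Of 68 rows that matched by name, 58 reached 10 or more counts in at least 2 of the 28 bulk RNA-seq libraries and were kept. The 10 below that minimum were Cacng1, Cacng6, Scn10a, Scn4a, Trpc2, Trpc5os, Trpm5, Trpm8, Trpv5 and Trpv6. The kept row Trpc4ap encodes a protein that associates with TRPC4 and is not itself a channel.

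In the light-pulse experiment, wild-type mice stayed in the dark until circadian time 17 (CT17, in the subjective night, 4 libraries), received light from then on, for 0.5 h in 4 libraries and for 1 h, 3 h or 6 h in 2 libraries each, or stayed in the dark until CT23 (2 libraries). In the Npas4 experiment, Npas4-/- mice and wild-type littermates received 1 h of light from CT17 or stayed in the dark, with 3 libraries in each of the 4 groups. Each bulk library pooled 6 pairs of SCN. Npas4 encodes an activity-induced transcription factor, and how the null allele was made is not given in the sources used here. Peak lists of the histone marks H3K27ac and H3K4me3, from wild-type SCN with 1 h of light or in the dark, gave a second readout.

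Voltage-gated calcium channels are built around a pore-forming alpha1 subunit (Cacna1 genes), to which an intracellular beta subunit (Cacnb) and an extracellular alpha2delta subunit (Cacna2d) attach and promote surface expression. Most Cacng genes expressed in brain encode TARPs, which are auxiliary subunits of AMPA-type glutamate receptors. Sodium channel alpha subunits (Scna genes) carry the action potential upstroke, and beta subunits (Scnb genes) set channel gating and surface expression and act as cell adhesion molecules. In SCN neurons, L-type and T-type calcium currents, persistent sodium current and the NALCN leak are known to shape the daily cycle of firing, and calcium entry links light input from the retina to clock gene transcription.

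Channel genes covered a wide range of levels. On the scale of the deposited RPKM (reads per kilobase of gene, scaled to the library's reads), averaged over all 28 libraries, 27 of the 58 members were at 10 RPKM or more, 21 lay between 1 and 10 and 10 lay under 1. The members' median level was 8.61 RPKM, against 7.09 RPKM over the 14476 genes tested in both experiments. Together the members took 0.4825% to 0.5615% of a library's counts.

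Nalcn, which encodes the sodium leak pore, had the highest mean level at 51.4 RPKM, with group means between 47.5 and 64.7 RPKM. Among auxiliary subunits, Cacng7 (a TARP) averaged 47.9 RPKM and the sodium channel beta subunit gene Scn2b 40.7 RPKM. Among pore-forming alpha subunits, the T-type calcium channel gene Cacna1g led its class at 19 RPKM and Scn2a1, the older symbol of the Nav1.2 gene Scn2a, led the sodium channels at 22.2 RPKM. Group means of Scn2a1 lay between 18.5 and 28.5 RPKM. Hcn2 led the HCN genes at 23.2 RPKM, with group means of 16.7 to 19.9 RPKM in the light-pulse experiment and 26.6 to 33.1 RPKM in the Npas4 experiment. The experiments were counted and normalised in separate tables, so levels set across them were not tested.

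Cacnb3, a calcium channel beta subunit gene, led its class at 21 RPKM (group means 15.5 to 24.9), and Cacna2d2 led the alpha2delta genes at 25.2 RPKM. Trpm3, a steroid- and heat-sensitive TRP channel gene, led the TRPM class at 15.9 RPKM, with group means of 12.8 to 19.7 RPKM. The TRPC channel genes were led by Trpc5 at 6.27 RPKM, and Trpc4ap stood apart from them at 22 RPKM. At the low end, Trpm1 was at 0.019 RPKM, Trpv1 at 0.064 RPKM and Cacna1f, the calcium channel of photoreceptor synapses, at 0.0738 RPKM. These genes had few reads, and their fold changes were the least precise.

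**Figure D1:**
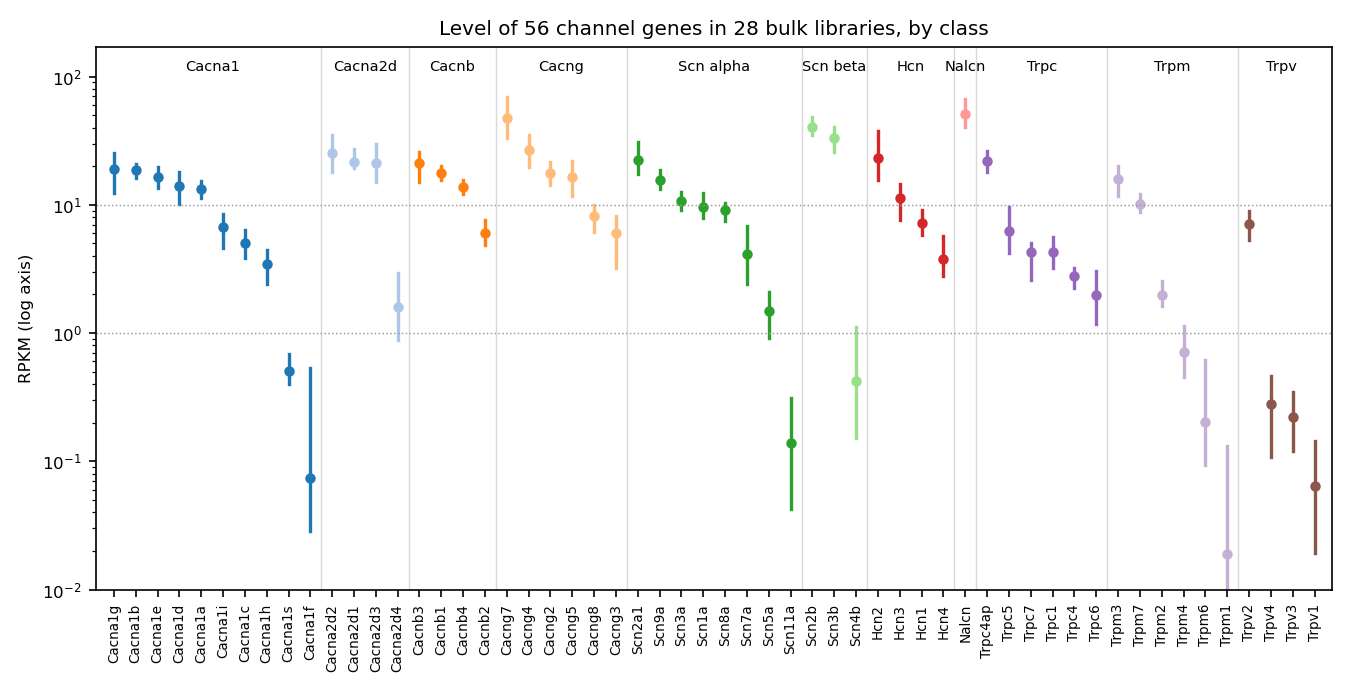
Mean RPKM of 56 channel genes over 28 bulk libraries on a log axis, grouped by class and ordered by level within each. Points are means and vertical lines run from the lowest to the highest library (cut at the foot of the axis), and dotted lines mark 1 and 10 RPKM. Nalcn, Cacng7 and Scn2b lie highest, and Trpm1, Trpv1 and Cacna1f lowest.

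Histone peaks were listed at the start of most channel genes of higher level. H3K4me3 marks active promoters and H3K27ac marks active promoters and enhancers. RefSeq start sites in build GRCm38.p6 were at hand for 45 members and for 16818 genes in all. A peak within 1 kb of a start was listed for H3K27ac at 26 of 45 members in light and 27 in the dark (57.8% and 60%, against 47.4% and 48.3% of all genes with a start). For H3K4me3 it was 38 of 45 members in light and 38 in the dark, which is 84.4% in both, against 64.8% and 65.9% of all genes. All genes were taken without a minimum count, whereas members had to reach one, so the shares are of unlike sets. No set matched for level was compared. All 20 members with a start site and a level of 10 RPKM or more had H3K4me3 in both lighting conditions, and 19 of them had H3K27ac in light and 19 in the dark. Of 9 members with a start site and a level under 1 RPKM, 3 had H3K4me3 and 0 had H3K27ac. With 1 list per mark and lighting condition these are descriptions of single libraries.

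At 3 of the 45 members with a start site, the lists in light and dark differed in whether a peak was listed. How often the lists differed over all genes with a start was not counted. The part of light in such differences was not tested. A peak of H3K27ac stood in the dark list but not in the light list at Scn8a (the Nav1.6 gene, 8.6-fold enrichment in the authors' list) and at Trpc4 (5.55-fold). The reverse held for Scn1a (the Nav1.1 gene), at 4.21-fold in light. A further 7 members had a peak in none of the 4 lists, namely Cacna1f, Cacna1s, Scn11a, Scn7a, Trpm1, Trpv1 and Trpv3. Another 10 had H3K4me3 without H3K27ac, among them Trpc5, Trpc6 and Trpc7. For 13 members, including Scn3b, no start site was at hand, and both ends of the gene were searched instead, so that such a peak need not lie at the start. Of these 13, 7 had H3K27ac in light and 9 in the dark, and 11 had H3K4me3 in each. Cacna2d4 (4.67-fold) and Hcn3 (4.15-fold) had H3K27ac in the dark list and none in the light list. Scn3b then had H3K27ac at 7.94-fold in light and 7.17-fold in the dark, and H3K4me3 at 25.1-fold in light and 31.8-fold in the dark.

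The start regions of 4 members that passed the threshold in a comparison of mRNA levels are printed from RefSeq (build GRCm38.p6, 250 bases before the start to 50 after it, 5′ to 3′ on the gene's own strand), because each carried a histone peak within 1 kb. They are chr6:119108446-119108745 on the minus strand for Cacna1c, chr14:29721815-29722114 on the minus strand for Cacna2d3, chr3:54155807-54156106 on the plus strand for Trpc4 and chr11:62574263-62574562 on the plus strand for Trpv2. Capitals mark TCGTG, the core recognised by NPAS4 with its ARNT partners.
Cacna1c: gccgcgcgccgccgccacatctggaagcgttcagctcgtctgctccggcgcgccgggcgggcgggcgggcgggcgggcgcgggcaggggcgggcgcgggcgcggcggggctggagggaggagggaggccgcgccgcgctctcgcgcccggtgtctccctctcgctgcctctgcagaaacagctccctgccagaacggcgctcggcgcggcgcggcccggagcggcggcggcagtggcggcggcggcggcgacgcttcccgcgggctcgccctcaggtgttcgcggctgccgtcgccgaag
Cacna2d3: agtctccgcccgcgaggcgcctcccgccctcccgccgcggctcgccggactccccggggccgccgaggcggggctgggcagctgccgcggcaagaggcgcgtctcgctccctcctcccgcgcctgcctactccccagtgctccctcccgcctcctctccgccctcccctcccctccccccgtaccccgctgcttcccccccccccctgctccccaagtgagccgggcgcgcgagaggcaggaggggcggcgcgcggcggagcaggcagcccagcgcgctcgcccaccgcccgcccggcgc
Trpc4: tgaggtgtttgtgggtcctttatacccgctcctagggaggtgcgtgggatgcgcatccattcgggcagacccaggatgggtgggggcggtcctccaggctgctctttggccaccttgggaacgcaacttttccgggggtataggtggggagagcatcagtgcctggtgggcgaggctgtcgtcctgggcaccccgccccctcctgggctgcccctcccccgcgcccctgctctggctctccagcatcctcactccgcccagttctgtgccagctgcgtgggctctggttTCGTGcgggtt
Trpv2: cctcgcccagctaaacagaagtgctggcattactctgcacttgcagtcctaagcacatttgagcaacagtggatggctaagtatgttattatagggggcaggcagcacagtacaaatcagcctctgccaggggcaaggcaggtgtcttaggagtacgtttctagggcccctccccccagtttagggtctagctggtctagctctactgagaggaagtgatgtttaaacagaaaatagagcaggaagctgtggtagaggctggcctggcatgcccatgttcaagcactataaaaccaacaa
The Cacna1c and Cacna2d3 windows were 81.3% G and C, that of Trpc4 66% and that of Trpv2 50.3%, against a median of 57.8% over the 60 windows of members and 52.7% over all 32817 windows. At Cacna1c, H3K27ac was enriched 6.89-fold in light and 7.99-fold in the dark. At Cacna2d3 it was enriched 6.89-fold in light and 8.72-fold in the dark, and at the printed Trpv2 start 6.08-fold in light and 6.1-fold in the dark. Cacna1c and Trpv2 had 3 start windows each, and the others are not printed. At the other Cacna1c windows no peak of either mark was listed within 1 kb. The Trpv2 start at chr11:62574486 had no H3K27ac peak within 1 kb, and that at chr11:62575627 had the same 6.08-fold and 6.1-fold. H3K4me3 near all Trpv2 starts was 31.9-fold in light, from a peak at chr11:62575227-62577342, downstream of the printed window.

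Both strands of all windows were searched for 4 sets of letters. TCGTG was found in 10 of 60 member windows (16.7%) and in 16% of all windows, and among the 4 printed it was found in that of Trpc4. The full cAMP response element TGACGTCA was found in 0 member windows and in 1.79% of all. TGANTCA, read by AP-1, was found in 2 (3.33%, against 7.81% of all), and the E-box CACGTG, read by CLOCK and its relatives, in 3 (5%, against 7.15%). The E-box lay in windows of Trpm1, Trpm7 and Trpv3. None of the 4 sets of letters contains another, and matches are given as descriptions.

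Depth and the libraries themselves set limits on the comparisons. The light-pulse libraries held 12477382 to 15369985 counted reads where the title has no suffix s (12 libraries) and 27413860 to 30149286 where it has (4 libraries). The Npas4 libraries held 26638939 to 32097975. Libraries with the suffix s, whose meaning is not given in the sources used here, lay apart from all others on the first principal component. Of 55 members tested, 19 were higher and 23 lower in the suffix-s libraries in both CT17 dark and 0.5 h, so the fit carried a term for the suffix. The batch of the labels overlaps with light duration, since all 1 h, 3 h and 6 h libraries belong to batch 2 and the CT17 libraries of batch 2 are those with the suffix. No source used here tells whether pools of a group were collected apart, and p-values therefore reflect the spread among pools, which may be technical in part. All 8 markers of SCN neurons were detected in every group, at a summed 766.5 to 1053 CPM (counts scaled by TMM to a common library size) in light-pulse libraries. Light itself was visible, with Fos higher by 4.97 on the log2 scale at 0.5 h and by 4.40 at 1 h.

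No channel gene was called after 0.5 h or 1 h of light. Testing used edgeR's quasi-likelihood test on counts with Benjamini-Hochberg adjustment over all genes, with calls made under an adjusted p of 0.05. After 0.5 h, 0 of 55 members tested were called in edgeR and 0 in DESeq2, against 0.468% of all 14524 genes called in edgeR, and 1 member was at an unadjusted p under 0.05. After 1 h, again 0 of 55 were called in edgeR and 0 in DESeq2, against 1.27% of all genes, with 3 at an unadjusted p under 0.05. With the batch of the labels in place of the suffix, 4 members were called at 1 h, all higher (Cacng5, Nalcn, Scn9a and Trpc5), where that setting called 8.39% of all genes. The members' median log2 fold change was -0.01 at 0.5 h and 0.01 at 1 h, with a median SE of 0.07 at 0.5 h. Fold changes ran from -0.46 for Trpv3 to 0.57 for Scn4b at 0.5 h, and from -1.004 for Trpv4 to 0.22 for Cacna2d3 at 1 h, and the first 3 of these genes are among those with few reads. In the Npas4 experiment, 1 h of light called 0 of 57 members in Npas4-/- mice (1.56% of all genes called) and 0 of 57 in wild-type littermates (2.57% of all genes). DESeq2 called 0 in both, and 1 member in null mice and 4 in wild-type mice were at an unadjusted p under 0.05.

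At 3 h, 2 of 55 members were called, both higher, against 3.24% of all genes called in either direction and 2.2% called higher. With the batch of the labels in place of the suffix, 7 members were called (6 higher and 1 lower), where that setting called 11.5% of all genes. Light of 3 h ends later in the cycle than CT17 and no dark library of that hour was analysed here, so light and hour cannot be told apart in the 3 h values. Set against 1 h directly, where all libraries share batch and lack the suffix, 3 h of light called 1 of 55 members, against 1.53% of all genes in either direction and 0.806% called higher. That call was not Trpv2, which stood at 0.17 on the log2 scale in 3 h against 1 h. The members called at 3 h against CT17 dark included Trpv2, at chr11:62574486-62600305. It encodes a cation channel of the vanilloid TRP family found in neurons and in macrophages. Trpv2 had 31.2 and 32.8 CPM after 3 h, against 23.9, 26.4, 25.7 and 26.5 CPM in the dark at CT17. The groups did not overlap, and the fold change was 0.33 ± 0.07 (SE, adjusted p = 0.0194 by edgeR). The call rested on single libraries, since without CT17 replicate 1 the adjusted p was 0.101, without CT17 replicate 2 it was 0.0525, without 3 h replicate 1 it was 0.057 and without 3 h replicate 2 it was 0.188 in edgeR. With terms for both suffix and label batch it was 0.278, and in the 12 libraries without the suffix 0.0741. Trpv2 had 27.5 and 29.5 CPM after 1 h and 31.4 and 32.3 CPM after 6 h, against 29.5 and 28.03 CPM in the dark at CT23, a difference of 0.15 on the log2 scale that was not called (adjusted p = 0.617 by edgeR). Summed markers of oligodendrocytes were at 5953 to 6517 CPM at 3 h and 7549 to 8838 CPM in the dark at CT17, and pan-neuronal markers at 3105 to 3184 CPM at 3 h and 3067 to 3351 CPM in the dark at CT17. Microglial markers summed to 190.1 to 197 CPM at 3 h and 199.7 to 220.6 CPM in the dark at CT17. Among the cell marker lists, the calls at 3 h by edgeR were Aqp4 (astrocytes), P2ry12 (microglia) and Lhx1 (SCN neurons), all lower, and Prok2 and Rorb (SCN neurons), both higher. The part of cell composition in these values was not tested. In bulk tissue, fewer cells of a type and less RNA per cell cannot be told apart.

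The share of members at an unadjusted p under 0.05 at 3 h was 18.2% (10 of 55), against 15.5% of all genes. All 3 genes of T-type calcium channels, which open near the resting potential, were among these 10, a class singled out after the values were seen: Cacna1h at 0.27 on the log2 scale (adjusted p = 0.0786 by edgeR), Cacna1g at 0.30 (0.290) and Cacna1i at 0.19 (0.294). None of the 3 was called with the suffix term. With the batch of the labels in its place, Cacna1i stood at 0.54 (adjusted p = 0.00399 by edgeR) and was among the 7 members called. Suffix-s libraries differed from the others in Cacna1i by -0.37 on the log2 scale in CT17 dark and by -0.39 at 0.5 h. The CT17 libraries of batch 2 all carry the suffix, so in that setting light and suffix cannot be told apart. Cacna1h at 6 h stood at 0.30 (adjusted p = 0.139 by edgeR).

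After 6 h of light, 2 of 55 members were called, 1 higher and 1 lower, against 1.41% of all genes in either direction, 0.998% called higher and 0.413% called lower. The lower one was Trpc4, at chr3:54155584-54318471, which encodes a receptor-operated cation channel of the canonical TRP family. Trpc4 had 18.1 and 19.9 CPM after 6 h of light, against 25.9 and 26.7 CPM in the dark at CT23. The groups did not overlap, and both light libraries also lay below the 20.5 to 25.2 CPM of the dark libraries at CT17. The fold change was -0.47 ± 0.10 (SE, adjusted p = 0.0206 by edgeR). Without CT23 replicate 1 the adjusted p was 0.0804, without CT23 replicate 2 it was 0.195, without 6 h replicate 1 it was 0.24 and without 6 h replicate 2 it was 0.054 in edgeR. With terms for both suffix and label batch it was 0.0777, and in the 12 libraries without the suffix 0.0623. Light of 3 h gave 19.9 and 22.9 CPM. Light of 1 h gave 22.4 and 23.8 CPM, inside the range of the dark libraries at CT17. The start region of Trpc4 printed above had H3K27ac in the dark list (5.55-fold) and none in the list of 1 h of light. Whether that peak bears on the mRNA at 6 h was not tested.

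Members lay more often below 0 than above it at 6 h: 20 of 55 had a positive log2 fold change, against 49.6% of all genes. All 4 HCN genes, which carry the pacemaker current, all 4 Cacnb genes and all 5 Trpm genes tested were below 0, and none was called. The classes did not share 1 direction, since 5 of 6 Cacng genes and 5 of 9 Cacna1 genes lay above 0. Nalcn stood at -0.23 (adjusted p = 0.284 by edgeR).

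Between the dark times, CT23 was compared with CT17, which asks about the hour of the cycle and not about light. Of 55 members, 1 was called, against 0.269% of all genes in either direction and 0.103% called higher. It was Cacna2d3, at chr14:28904943-29722775, which encodes an alpha2delta subunit and whose span overlaps those of Lrtm1 and Gm6043. Overlap of exons was not checked and strand is unstated, so whether these genes share reads is not known. Cacna2d3 had 83.3 and 87.0 CPM at CT23, against 55.6, 71.8, 57.7 and 69.9 CPM at CT17. The CT23 pair lay above all 4 CT17 libraries, of which the suffix-s pair was the higher. The fold change was 0.54 ± 0.08 (SE, adjusted p = 0.0142 by edgeR), and with the batch of the labels it was 0.42 (adjusted p = 0.0324). Without CT17 replicate 1 the adjusted p was 0.0575, without CT17 replicate 2 it was 0.0637, without CT23 replicate 1 it was 0.0974 and without CT23 replicate 2 it was 0.194 in edgeR. With both terms it was 0.189, and in the 12 libraries without the suffix 0.0734. After 6 h of light Cacna2d3 had 64.9 and 73.7 CPM, and its difference from the same CT23 libraries was not called (-0.30, adjusted p = 0.160 by edgeR).

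At CT23, 40 of 55 members had a log2 fold change above 0, against 48.4% of all genes, and the members' median was 0.10. All 7 Trpc rows and all 4 Hcn genes were above 0, with Trpc6 at 0.39 and the Hcn genes from 0.12 for Hcn2 to 0.26 for Hcn4, whereas 2 of 5 Trpm genes and 1 of 3 Trpv genes were above 0. Nalcn had 448 and 488 CPM at CT23, against 365, 313, 364 and 315 CPM at CT17. Its CT23 libraries lay above all CT17 ones, with a fold change of 0.32 ± 0.07 that was not called (adjusted p = 0.114 by edgeR). The comparison of CT23 with CT17 and that of 6 h of light with CT23 share the CT23 libraries, so that a high CT23 pair gives a positive value in one and a negative value in the other.

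**Figure D2:**
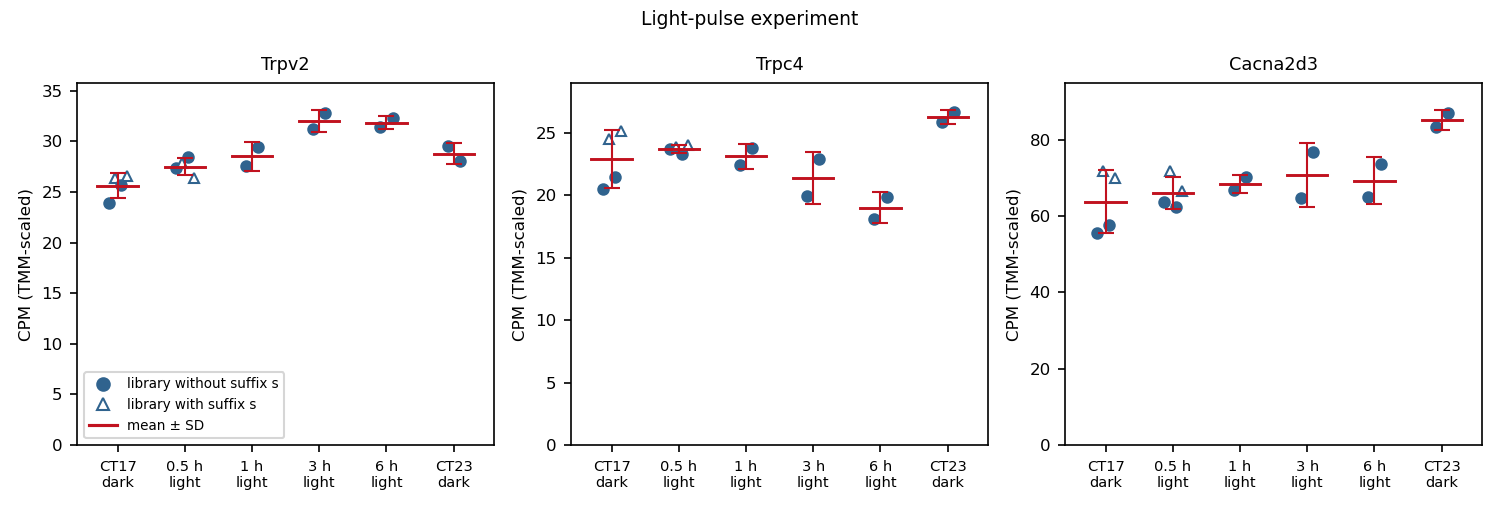
CPM (TMM-scaled) of Trpv2, Trpc4 and Cacna2d3 in each light-pulse library, with mean and SD in red and suffix-s libraries as open triangles. Trpv2 lies at 31.2 CPM or more at 3 h and 6 h, Trpc4 at 19.9 CPM or less at 6 h and Cacna2d3 at 83.3 CPM or more at CT23.

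The Npas4 experiment asked how the loss of NPAS4 bears on gene expression in the dark and after light. Npas4 itself had 5.27, 10.1 and 10.4 CPM in null mice in the dark, against 8.64, 8.20 and 8.34 CPM in wild-type mice in the dark. After 1 h of light it had 4.55, 7.63 and 5.19 CPM in null mice, against 13.7, 10.7 and 14.0 CPM in wild-type mice, a log2 fold change of -1.14 ± 0.24 (SE, adjusted p = 0.0663 by edgeR). Reads of the gene remained in null libraries, and since the deleted part is not given in the sources used here, the dark level does not check the genotype labels.

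Null mice had more mRNA of the sodium channel beta3 subunit gene Scn3b in both lighting conditions and less of the L-type calcium channel gene Cacna1c in the dark. Of 57 members tested, 2 were called in the dark, 1 in each direction, against 0.753% of all genes (0.433% higher and 0.32% lower). After 1 h of light 1 was called, higher, against 0.467% of all genes (0.273% higher). The members' median log2 fold change was 0.01 in the dark, with 30 of 57 above 0. At an unadjusted p under 0.05 there were 11 members in the dark (19.3%, against 9.19% of all genes) and 7 after light (12.3%, against 5.91%).

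Scn3b, at chr9:40269216-40291618 with no overlapping gene, encodes a beta subunit that is linked noncovalently to the channel and affects its inactivation. It had 179, 191 and 189 CPM in null mice in the dark, against 155, 153 and 144 CPM in wild-type mice in the dark. After 1 h of light it had 184, 192 and 185 CPM in null mice, against 144, 145 and 146 CPM in wild-type mice. All 6 null libraries lay above all 6 wild-type libraries. The log2 fold change was 0.31 ± 0.05 in the dark (SE, adjusted p = 0.0145 by edgeR) and 0.37 ± 0.05 after light (adjusted p = 0.00572). The dark call was lost without null replicate 3 (adjusted p = 0.0692 by edgeR) or without wild-type replicate 3 (0.0862), whereas the call after light held in each of the 12 fits with 1 library left out, with 0.0432 as the highest adjusted p. The log2 fold change of Scn3b with light was 0.01 in null mice and -0.05 in wild-type mice, neither of them called, and the difference between these responses was 0.06 (95% interval -0.09 to 0.22).

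Cacna1c encodes the pore of Cav1.2, an L-type channel that couples depolarization to transcription through cAMP response element binding protein. It spans chr6:118587240-119197384 on the minus strand, where 7 other annotated genes overlap it, Dcp1b among them. Cacna1c had 78.8, 96.8 and 94.4 CPM in null mice in the dark, against 120, 138 and 119 CPM in wild-type mice in the dark. The dark groups did not overlap, with a log2 fold change of -0.48 ± 0.09 (SE, adjusted p = 0.0243 by edgeR). Without null replicate 1 the adjusted p was 0.0631, without null replicate 3 it was 0.0571, without wild-type replicate 2 it was 0.0901 and without wild-type replicate 3 it was 0.0592 in edgeR, while the fold change stayed between -0.54 and -0.39.

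After 1 h of light Cacna1c had 95.6, 112 and 100 CPM in null mice, against 124, 115 and 120 CPM in wild-type mice. These groups did not overlap either, but the fold change of -0.22 ± 0.09 was not called (adjusted p = 0.689 by edgeR). The difference between genotypes in the light response was 0.27 ± 0.12 (SE, 95% interval -0.00 to 0.53, unadjusted p = 0.0527 by edgeR), so that a smaller gap after light was not shown. Cacna1d, the gene of the other neuronal L-type channel Cav1.3, stood at -0.18 in the dark (adjusted p = 0.646 by edgeR) and at -0.13 after light (0.999).

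**Figure D3:**
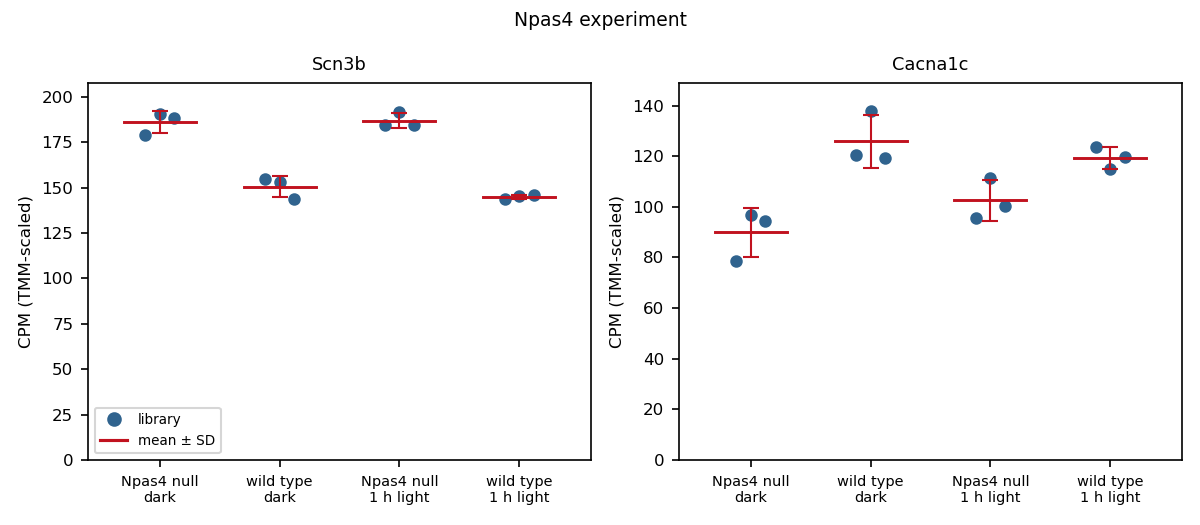
CPM (TMM-scaled) of Scn3b and Cacna1c in each library of the Npas4 experiment, with Npas4 null left of wild type in each lighting condition and mean and SD in red. Scn3b lies at 179 CPM or more in every null library and at 155 CPM or less in every wild-type library, and Cacna1c lies at 112 CPM or less in null libraries and at 115 CPM or more in wild-type libraries.

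Some markers of SCN neurons differed between genotypes beside these genes. The summed level of all 8 was 1622 to 2478 CPM in null and 1194 to 1731 CPM in wild-type libraries in the dark, which overlap. After light it was 1905 to 2162 CPM in null and 1299 to 1810 CPM in wild-type libraries. Of the 8, Nms and Prok2 were called higher in null mice in both lighting conditions and the others were not called. Of all genes, 0.433% were called higher in the dark and 0.273% after light. Prok2 was also called higher with 1 h of light in either genotype. Pan-neuronal markers summed to 2447 to 2558 CPM in null and 2289 to 2457 CPM in wild-type libraries in the dark, and to 2441 to 2556 CPM in null and 2322 to 2425 CPM in wild-type libraries after light. Some genes that respond to light also differed between genotypes in the dark. Of 9 such genes, 3 were called higher in null mice in the dark (Fos, Nr4a1 and Per2), against 0.433% of all genes. The median log2 fold change of the 9 was 0.80. Fos had 17.9, 24.8 and 22.4 CPM in null mice in the dark, against 8.16, 7.97 and 7.84 CPM in wild-type mice in the dark, a log2 fold change of 1.44 ± 0.19 (SE, adjusted p = 0.00308 by edgeR). The dark groups did not overlap in Fos. The part of these differences in the values of Scn3b and Cacna1c was not tested.

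No member was called for a difference between genotypes in its response to 1 h of light. By edgeR 0 of 57 were called, as against 0.0133% of all genes (Fos and Nr4a1, both with a smaller response in null mice), by DESeq2 0 were called, and 0 were at an unadjusted p under 0.05. The members' values ran from -0.40 for Trpv3 to 2.36 for Cacna1f.

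That Cacna1f value and the neighbouring one of Trpm1 rest on 1 library. Wild-type dark replicate 1 held 4.72 CPM of Cacna1f, against 0.252 to 1.04 CPM in the 11 other libraries of the experiment, and 1.90 CPM of Trpm1, a channel of retinal bipolar cells, against 0.0360 to 0.368 CPM. Fold changes between null and wild-type mice in the dark were -2.28 for Cacna1f (adjusted p = 0.274 by edgeR) and -2.23 for Trpm1 (0.415), and neither was called. Without wild-type dark replicate 2, Cacna1f was called lower after light in wild-type mice, and it gave the one call in the 12 such fits of that comparison.

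**Figure D4:**
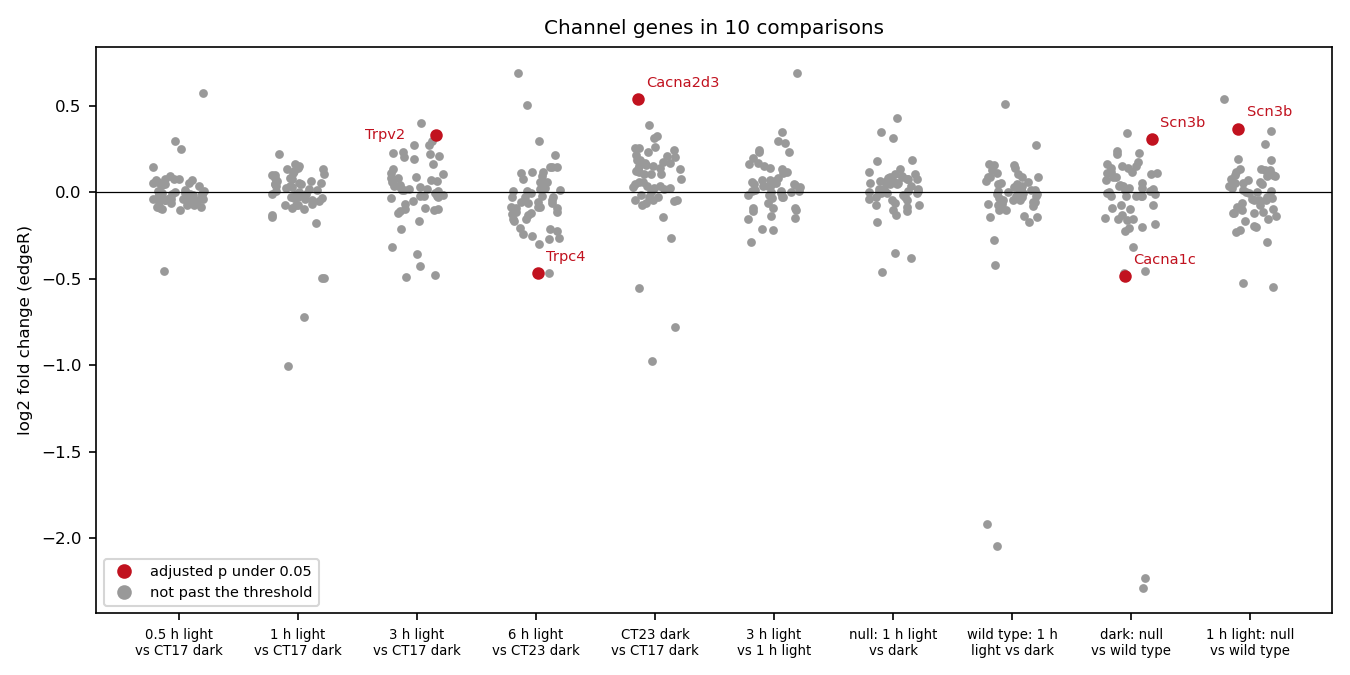
Log2 fold change of channel genes (53 in the light-pulse and 55 in the Npas4 experiment) in 10 comparisons, from edgeR, with genes at an adjusted p under 0.05 in red and named. The red points are Trpv2, Trpc4, Cacna2d3, Scn3b (2 comparisons) and Cacna1c, and the lowest grey points of the wild-type light response and of null against wild type in the dark are Cacna1f and Trpm1.

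Among genes of proteins that bind or regulate these channels, 2 rose with light at every duration of 3 h or less. Of a list of 31 such genes, 28 were in the tables and tested. Gem and Rrad, small GTPases of the RGK family that inhibit high-voltage-activated calcium channels, were called higher at 0.5 h, 1 h and 3 h, Rrad also at 6 h, and both after 1 h of light in either genotype. Of all genes, 0.468% were called at 0.5 h, 1.27% at 1 h, 3.24% at 3 h, 1.41% at 6 h, 1.56% with light in null mice and 2.57% with light in wild-type mice. Rrad had 47.3 and 52.5 CPM after 1 h, against 2.92, 3.96, 3.71 and 5.26 CPM in the dark at CT17, a log2 fold change of 3.71 ± 0.17 (SE, adjusted p = 7.16e-10 by edgeR). The groups were far apart, and after 3 h Rrad had 16.2 and 18.5 CPM, a log2 fold change of -1.52 ± 0.16 from 1 h (adjusted p = 5.6e-05).

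Gem had 28.4 and 27.99 CPM after 1 h and 25.0 and 30.8 CPM after 3 h, against 4.49, 4.89, 4.38 and 5.52 CPM in the dark at CT17. Its log2 fold changes were 2.51 ± 0.14 at 1 h (adjusted p = 1.27e-08 by edgeR) and 2.50 ± 0.14 at 3 h (4.23e-08), and the 3 h level differed from the 1 h level by -0.02 (0.980). With 1 h of light in the Npas4 experiment, Rrad rose by 4.01 in null mice and by 4.76 in wild-type mice, and the difference of -0.75 was not called (unadjusted p = 0.0188, adjusted p = 1.00 by edgeR).

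Stac, whose protein binds L-type channels and slows their inactivation, was the one list member called between genotypes, where 0.753% of all genes were called in the dark and 0.467% after light. It had 5.05, 5.26 and 5.07 CPM in null mice in the dark, against 8.49, 10.8 and 9.11 CPM in wild-type mice in the dark. After light it had 5.19, 4.72 and 5.25 CPM in null mice, against 8.08, 7.20 and 8.87 CPM in wild-type mice. All null libraries lay below all wild-type libraries, with log2 fold changes of -0.88 ± 0.11 in the dark (SE, adjusted p = 0.00261 by edgeR) and -0.67 ± 0.11 after light (adjusted p = 0.0249). Of a second list of 35 other calcium channels, exchangers and pumps, 0 of 32 tested in the light-pulse experiment and 0 of 33 in the Npas4 experiment were called in any of the 11 comparisons by edgeR, in which 0.0133% to 3.24% of all genes were called. At an unadjusted p under 0.05 there were 0 to 4 of them in a comparison. DESeq2 called Atp2b1 (a plasma membrane calcium pump) at 3 h, with 2.89% of all genes. It called Atp2a3 (a calcium pump of the endoplasmic reticulum) between genotypes after light, with 0.867% of all genes, and none of the list in the 9 other comparisons. Shares by DESeq2 are over 18115 (light-pulse) or 18218 (Npas4) genes with any count, and those by edgeR over the fewer genes that passed its filter.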

How the data were processed

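Bulk mRNA and chromatin of SCN tissue were profiled. Read counts deposited by the authors are whole numbers for each gene symbol without normalisation, beside which RPKM values were deposited. The deposited RPKM equal counts divided by gene length and library total, with a largest relative departure of 7e-15. The authors also deposited narrowPeak lists with a fold enrichment (a linear ratio) and a -log10 q-value per peak, 1 list per mark and lighting condition. Per the submitters' processing notes, the series used build mm10 with HTSeq 0.9.1, MACS2 2.1.1, STAR 2.7.1a, bedtools 2.25.0, featureCounts 1.6.2, HOMER 4.9.1, STAR 2.5.2b and BWA 0.7.16a. Which tool made which file, and whether counting used strand, is not given in the sources used here, so overlapping genes are uncertain. Single-nucleus samples and ChIP inputs were not used here.

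Under R 4.3.3, edgeR 4.0.16 scaled counts by TMM, filtered them by filterByExpr and applied its quasi-likelihood test. The filter left 55 members among 14524 genes (light-pulse, group plus a suffix term, 16 libraries) and 57 among 15001 (Npas4, 4 groups, 12 libraries). Cacna1f and Trpm1 were filtered out of the light-pulse fit and Trpv1 out of both. P-values were Benjamini-Hochberg adjusted over all genes tested, with calls at 0.05. The SE is the size of the log2 fold change divided by the root of F. The fits were tested on simulated counts. Of genes given a log2 change of 0.5, 51.5% were called for 3 h against CT17 dark. For null against wild type in the dark it was 58.6%. At a log2 change of 1 it was 84% in both. A gene that was not called may therefore still have changed. In the simulated counts, 13 unchanged genes were called at 3 h and 11 between genotypes, so some calls may be false. No suffix difference was simulated. Alternatives were the label batch, both terms, 12 libraries, RLE size factors, DESeq2 1.42.0, no filter, a replicate block and each library left out. Library pairs within a group differed by a chi-square of 4.878 or more per degree of freedom, so none was treated as the same library sequenced again. This cannot tell whether libraries with and without the suffix came from the same pool. The fit counted them as separate. After centring on group means, same-numbered libraries correlated at a median of 0.124 (-0.123 to 0.29) in the 12 light-pulse libraries. In the Npas4 experiment it was 0.202 (-0.0134 to 0.525). Differently numbered ones correlated at -0.124 (-0.29 to 0.123) and -0.111 (-0.409 to 0.135). No source used here says that the numbers pair the samples, and the main fits ignore them.

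Named genes were members called in any of 11 comparisons, and otherwise the highest of each class. Values of some genes are not reported here, although counts over members and lists include them. Partner and calcium-handling genes, cell markers and motifs came from lists. Retina markers were added after these data were seen. Members and lists were chosen with earlier results of these data known.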

Additional observations from a re-analysis of the deposited data

How the results depend on the processing

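Across these alternatives no fold change of a named gene that was called changed sign. With the label batch in place of the suffix term, 4 members were called at 1 h (Cacng5, Nalcn, Scn9a and Trpc5), 7 at 3 h (6 higher and 1 lower, Trpv2 among them) and 3 for CT23 against CT17 (Cacna2d3, Cacng5 and Nalcn). That setting also called 8.39% of all genes at 1 h, 11.5% at 3 h and 0.475% for CT23 against CT17. The CT17 libraries of batch 2 all carry the suffix, so that setting leaves the suffix difference inside these comparisons. With both terms, and likewise in the 12 libraries without the suffix s, 1 member was called at 3 h, 1 at 6 h and 0 for CT23 against CT17. Of all genes, both terms called 0.454%, 0.785% and 0.0551% in these comparisons, and the 12 libraries 1.37%, 0.827% and 0.0208%. DESeq2 called 2 for CT23 against CT17 (Cacna2d3 and Nalcn) and 4 for null against wild type in the dark (Cacna1c, Cacna1f and Scn3b among them). In these comparisons it called 0.48% of 18115 and 1.42% of 18218 genes with any count. With a replicate block the genotype comparison called 4 in the dark (Cacna1c, Scn3a and Scn3b among them) and 2 after light (Scn3b among them), where 3.09% and 1.51% of all genes were called. Each library correlated best with its own number (12 of 12 in each experiment), a hint from the data and not from the design. In the light-pulse experiment the 2 libraries of a group mirror each other after centring, so these 12 matches are not independent. The cause of these changes was not tested. Leaving out 1 library at a time gave 0 to 0 called members at 0.5 h, at 1 h, in null mice after light and for the difference between genotypes. It gave 0 to 1 in wild-type mice after light, where these fits called 1.74% to 2.73% of all genes. For null against wild type it gave 0 to 2 in the dark (0.318% to 0.688% of all genes) and 1 to 1 after light (0.212% to 0.536%). For 3 h, 6 h, CT23 against CT17 and 3 h against 1 h, some of these fits leave 1 library in a group, and their counts are not given. With a -log10 q-value of 5 or more, or a distance of 0.5 kb or 2 kb, members with a peak numbered 22 to 29 for H3K27ac and 37 to 41 for H3K4me3. Depth limits the members under 1 RPKM, and 2 libraries per group limit the 1 h, 3 h, 6 h and CT23 values.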

Other observations

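Retinal genes marked a pair of libraries. Summed over the list of retina markers, null dark libraries reached 12.77 to 27.13 CPM, against 12.17 to 231.1 CPM in wild-type dark libraries, and CT17 dark libraries reached 9.122 to 94.14 CPM. The high ends belong to wild-type dark replicate 1 and CT17 dark replicate 1. Markers of meningeal fibroblasts spanned 95.64 to 810.9 CPM among the 0.5 h libraries and 80.83 to 276.5 CPM among those of CT17 dark. The light responses of the 55 members measured at 1 h in both experiments had the same sign in wild-type mice for 36 of 55 (65.5%), with Pearson's r of 0.119 across genes, which are not independent replicates.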
